A study of Arabidopsis thaliana with 9 samples.

Results

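RLP37 to RLP42 are 6 genes for receptor-like proteins on chromosome 3 of Arabidopsis thaliana, and their transcripts were compared by RNA-seq between wild-type seedlings and seedlings labelled as hd2b hd2c double mutants. The 6 genes were taken by locus identifier from the 33278 loci of the deposited expression table: RLP37 (AT3G23110), RLP38 (AT3G23120), RLP39 (AT3G24900), RLP40 (AT3G24982), RLP41 (AT3G25010) and RLP42 (AT3G25020). They were chosen with their change in this same contrast already known, so their values are given as a description and carry no test. Both mutated genes, HD2B and HD2C, encode plant-specific histone deacetylases of the HD2 type, and the comparison asks which transcripts differ when both are mutated.

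Of the 9 samples in the series, 4 are RNA-seq libraries of whole seedlings at 6 days, and the other 5 are not analysed here. The control group is wild-type Columbia-0 (2 libraries) and the other group carries the genotype label hd2b hd2c (2 libraries). Both were grown on soil at 21 °C in continuous light, with no treatment given. The labels name no insertion alleles and do not state that the replicates came from separate plants, so the p-values below measure the spread between these libraries, which may be technical.

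Receptor-like proteins sit in the plasma membrane with leucine-rich repeats outside the cell and no kinase domain inside it. Those that act in immunity bind the adaptor kinase SOBIR1 and, once a microbial ligand is bound, recruit co-receptor kinases such as BAK1, and the signal passes through receptor-like cytoplasmic kinases and the EDS1, PAD4 and ADR1 proteins. RLP42, also named RBPG1, is the receptor for fungal endopolygalacturonases, enzymes with which fungi digest pectin. No ligand is assigned here to the other 5 proteins.

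The values are FPKM, fragment numbers divided by transcript length and library size, so levels can be set side by side between genes. Over all loci the columns summed to between 956002 and 1105981 FPKM, and 19537 to 19767 loci reached 1 FPKM. HD2B was lower in the libraries that carry the mutant label, and HD2C did not pass the test. HD2B (AT5G22650) measured 138 and 191 FPKM in wild type, against 24.2 and 24.3 FPKM in the labelled mutants, with an adjusted p of 3.62e-04 in limma. HD2C (AT5G03740) measured 56.1 and 63.9 FPKM in wild type, against 74.7 and 55.8 FPKM in the labelled mutants (limma adjusted p = 0.791), so those libraries are called labelled mutants and every direction rests on the labels and on HD2B. Green tissue markers and root markers were present in all 4 libraries: 6 photosynthesis genes summed to 45800 and 41940 FPKM in wild type and to 33740 and 45630 FPKM in the labelled mutants, and 10 root endodermis and root hair genes to 47.8 and 72.8 FPKM and to 106 and 68.2 FPKM. Labelled mutant library 1 was thus the lowest in the green list and the highest in the root list. Between the groups, 9 of the 10 root genes had a log2(FPKM + 1) change above 0 (median 0.36). Of the 6 green genes 5 had one below 0 (median −0.17), beside 49.3% of all tested loci below 0. No gene of these 2 lists passed in limma, and the part of organ make-up in the values below was not tested.

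All 6 genes were lower in both labelled mutant libraries than in either wild-type library, and they differed widely in how much lower. RLP40 and RLP41, which lie next to each other, were 5.51-fold and 3.14-fold lower by group means. RLP37 and RLP38 were 1.84-fold and 3.57-fold lower, and RLP42, the polygalacturonase receptor gene, was 1.13-fold lower. Both labelled mutant libraries lay below both wild-type libraries in 22.3% of the 27676 loci with a value above 0, and because the genes were picked on this contrast nothing is read from 6 of 6. In whole seedlings, fewer cells that express a gene and less RNA per cell cannot be told apart.

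**Figure D1:**
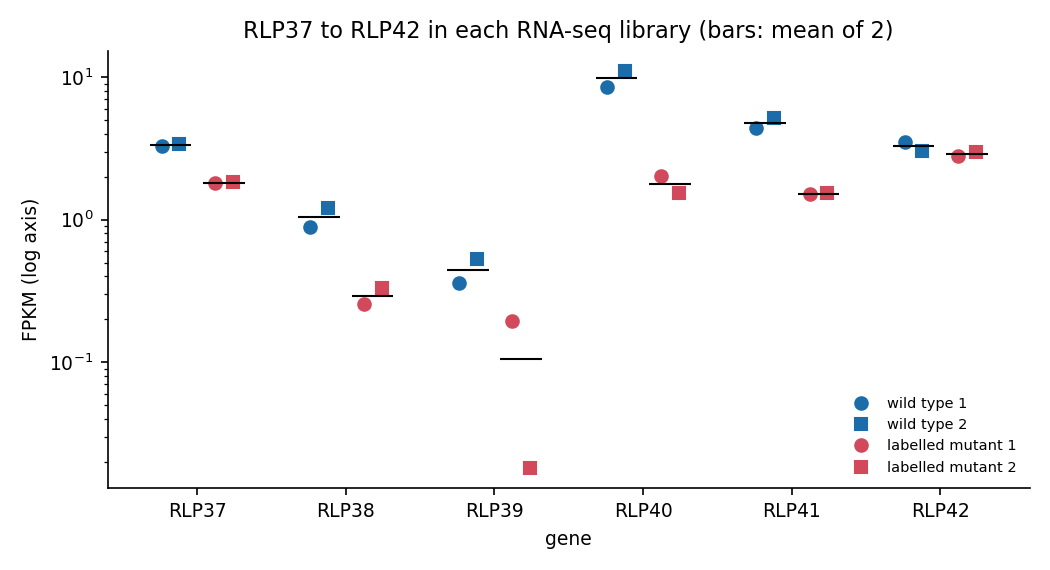
FPKM (log axis) of RLP37 to RLP42 in each of the 4 RNA-seq libraries, with wild type in blue, labelled mutants in red, library 1 as circles, library 2 as squares and bars at the mean of 2 libraries. The gap between colours is wide for RLP40 (9.83 against 1.78 FPKM) and narrow for RLP42 (3.28 against 2.89 FPKM), and the red points of RLP39 lie far apart.

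RLP40 measured 8.56 and 11.1 FPKM in wild type, against 2.02 and 1.54 FPKM in the labelled mutants. The lowest wild-type value was 4.23 times the highest labelled mutant value. Its group means were 9.83 ± 1.79 and 1.78 ± 0.340 FPKM (SD, n = 2 each), a difference of −1.95 on the log2(FPKM + 1) scale, on which the changes of low genes are understated. In wild type RLP40 was the fifth of the 56 RLP genes in the table by mean FPKM, and in the labelled mutants it ranked 27.

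RLP41 measured 4.39 and 5.17 FPKM in wild type, against 1.52 and 1.53 FPKM in the labelled mutants. The labelled mutant libraries were nearly equal, and the folds between single libraries ran from 2.88 to 3.40. The difference was −1.19 on the log2(FPKM + 1) scale, with group means of 4.78 ± 0.549 and 1.52 ± 0.00517 FPKM (SD, n = 2 each), and the rank in the family went from 16 to 30.

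RLP42 measured 3.53 and 3.03 FPKM in wild type, against 2.81 and 2.97 FPKM in the labelled mutants. The groups did not overlap, but the nearest libraries were only 1.02-fold apart, and the difference of the means (3.28 ± 0.354 against 2.89 ± 0.108 FPKM, SD, n = 2 each) was close to the spread between the wild-type libraries. The log2(FPKM + 1) difference was −0.25 within replicate number 1 and −0.02 within replicate number 2. The gene of the known receptor thus had the smallest fold of the 6.

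RLP39, at the other end of the same cluster, had the lowest level of the 6 genes. It measured 0.359 and 0.530 FPKM in wild type, against 0.194 and 0.0181 FPKM in the labelled mutants, so that labelled mutant library 2 lay far below library 1 and the fold between single libraries ran from 1.85 to 29.3. Low values in the libraries numbered 2 step in whole-number ratios: of 3370 loci under 1 FPKM in every library, 54.9% had a ratio between these 2 libraries that was 1.046 times a fraction of small whole numbers (up to 4), with a tolerance of 0.2%. Divided by 1.046, the ratio of RLP39 was 28, a whole number within the same tolerance. As 28 lies outside the fractions counted in the 54.9%, that share is no background for it. The ratio of RLP38, the next lowest gene, was 3.5, and none of the other receptor genes had a whole number within the tolerance. The table holds no fragment counts, so the number of fragments behind 0.0181 FPKM is not known, and no order is read from it.

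RLP37 and RLP38 form the other pair, at a distance along the chromosome. RLP37 measured 3.30 and 3.38 FPKM in wild type, against 1.81 and 1.83 FPKM in the labelled mutants, and its replicates were the closest together of the 6 on the log2(FPKM + 1) scale (pooled SD 0.015). Its difference on that scale was −0.62, and the folds between single libraries ran only from 1.80 to 1.87. RLP38 measured 0.881 and 1.21 FPKM in wild type, against 0.254 and 0.330 FPKM in the labelled mutants. It was expressed at about the level of the filter in wild type and well under it in the labelled mutants, with a log2(FPKM + 1) difference of −0.66.

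The order of the genes by level changed between genotypes. In wild type RLP40 was the highest (9.83 ± 1.79 FPKM) and RLP41 the next (4.78 ± 0.549 FPKM), followed by RLP37 and RLP42 (3.34 ± 0.0603 and 3.28 ± 0.354 FPKM), which did not differ beyond their spread and changed places between the libraries. In the labelled mutants RLP42 was the highest (2.89 ± 0.108 FPKM), and RLP37 (1.82 ± 0.0155 FPKM) lay above RLP41 (1.52 ± 0.00517 FPKM) in both libraries. RLP40 (1.78 ± 0.340 FPKM) did not differ from RLP37 or RLP41 beyond its own spread, and RLP40 and RLP37 changed places between the libraries. RLP38 and RLP39 were the lowest in each library. RLP40 made up 40.7% and 45.4% of the FPKM summed over the 6 genes in wild type, against 23.5% and 18.8% in the labelled mutants, whereas the share of RLP42 was 16.8% and 12.4% in wild type, against 32.7% and 36.1% in the labelled mutants.

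Summed over the 6 genes, the level was 21.0 and 24.4 FPKM in wild type and 8.61 and 8.21 FPKM in the labelled mutants. The same genes held 9.61% and 11.3% of the FPKM of the RLP family in wild type, against 4.53% and 4.56% in the labelled mutants. The other 50 RLP genes summed to 197.8 and 192.6 FPKM in wild type and to 181.5 and 172.0 FPKM in the labelled mutants.

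Only 4 of the 6 genes entered the fit across all loci, since RLP38 and RLP39 did not reach 1 FPKM in at least 2 libraries. Those 4 reached 1 FPKM in every library, and no p is given for them because this contrast chose them. RLP40 and RLP41 had a log2(FPKM + 1) difference of −1 or lower, as did 0.592% of the 19917 tested loci, and for the same reason nothing is read from that count. The median log2(FPKM + 1) difference over all 6 was −0.64 (−1.53 with a pseudocount of 0.1 in place of 1), beside a median of 0.004 over all tested loci.

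The rest of the RLP family was not used to choose the 6 genes, but its list was also made with earlier results of these data known. Its counts are thus a description and no independent support. Of the 56 RLP genes in the table, 50 are outside RLP37 to RLP42, and 33 of these were tested. One of them, RLP53 (AT5G27060), fell and none rose, where limma called 0.552% of all tested loci lower, 0.608% higher and 1.16% in either direction. The log2 change lay below 0 in 23 and above 0 in 10, with a median of −0.12 against 0.004 over all tested loci, of which 49.3% lay below 0. Both labelled mutant libraries were below both wild-type libraries in 15 of the 33 and above them in 4, against 25.1% and 24.2% of all tested loci.

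RLP53 measured 2.04 and 2.41 FPKM in wild type, against 0.193 and 0.183 FPKM in the labelled mutants, 11.8-fold lower by group means. The log2(FPKM + 1) change was −1.44 (SE 0.18, limma adjusted p = 0.012). RLP53 passed the filter on low values only through the wild-type libraries, where it was high, as did RLP23 and RLP56 (AT5G49290). The filter thus favoured a difference in these genes, and all of them are in the family counts given above as lower. RLP56, named after its values were seen, measured 1.31 and 1.27 FPKM in wild type, against 0.866 and 0.932 FPKM in the labelled mutants. The call of RLP53 ended with no filter on low values (adjusted p = 0.0549) and it was not tested with a filter of a mean of 2 FPKM, and in the other alternatives the adjusted p ran from 8.42e-04 to 0.033.

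Of the RLP genes with the next smallest p, none passed. RLP34 (AT3G11010) measured 5.99 and 5.05 FPKM in wild type, against 3.06 and 2.53 FPKM in the labelled mutants (log2 −0.78, SE 0.16, limma adjusted p = 0.0701). RLP23 (AT2G32680), the receptor for a conserved peptide of necrosis-inducing microbial proteins, stood at 1.29 and 1.18 FPKM against 0.238 and 0.168 FPKM (log2 −0.89, SE 0.19, limma adjusted p = 0.0762). Both passed with columns rescaled to equal sums without rRNA loci (adjusted p = 0.03 for RLP34 and 0.0349 for RLP23), and RLP34 also with a replicate block (0.0475) and without wild-type library 2 (0.0317). RLP31 (AT3G05370), RLP49 (AT4G13900, a transcribed pseudogene in the reference) and RLP47 (AT4G13810) averaged 6.42, 3.83 and 7.22 FPKM in wild type and 4.08, 2.47 and 5.32 FPKM in the labelled mutants, with limma adjusted p of 0.145, 0.209 and 0.24.

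Among other receptors with a known ligand or a known role none passed, and those described here were picked for that role after their values were seen. RLP30 (AT3G05360) and RLP32 (AT3G05650), receptors for a Sclerotinia protein and for bacterial translation initiation factor, averaged 4.25 ± 0.800 against 4.55 ± 0.426 FPKM and 1.65 ± 0.334 against 1.18 ± 0.0838 FPKM (SD, n = 2 each). RLP1 (AT1G07390), also named ReMAX, averaged 1.67 ± 0.118 against 2.50 ± 0.546 FPKM (limma adjusted p = 0.327). The developmental receptors CLV2 (RLP10, AT1G65380) of the shoot meristem, TMM (RLP17, AT1G80080) of stomatal patterning and RLP44 (AT3G49750) of brassinosteroid and wall signalling had log2 changes of 0.09, 0.24 and −0.05, with limma adjusted p of 0.798, 0.407 and 0.896.

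**Figure D2:**
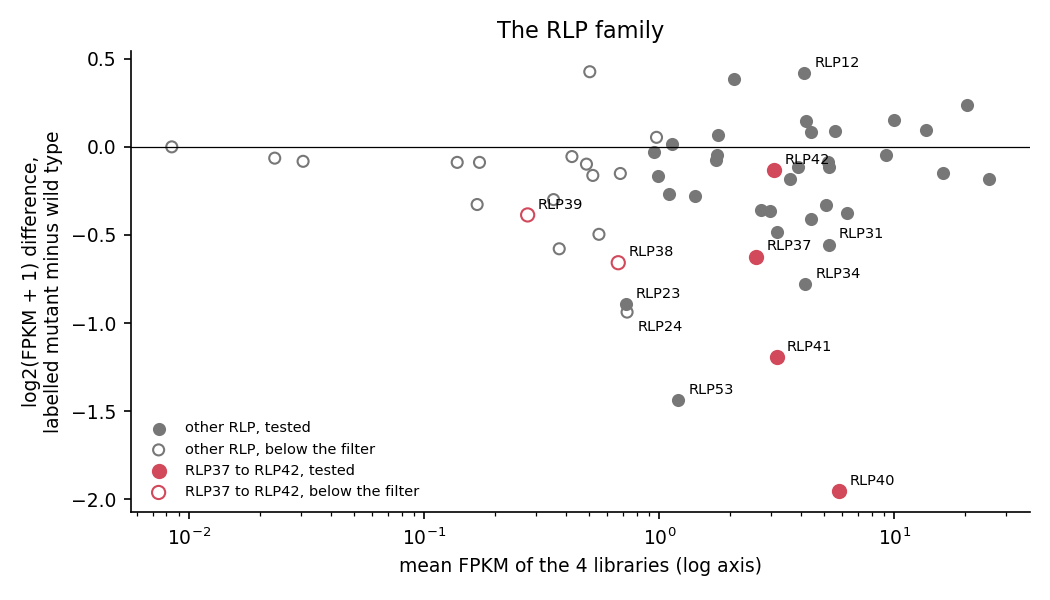
The log2(FPKM + 1) difference, labelled mutant minus wild type, of each RLP gene against its mean FPKM over the 4 libraries (log axis), with RLP37 to RLP42 in red, other RLP genes in grey, and open circles for genes that did not pass the filter on low values; RLP5, listed at 0 throughout, is not drawn. RLP40 (−1.95), RLP53 (−1.44) and RLP41 (−1.19) are the lowest points, and RLP42 (−0.13) lies among the genes near 0.

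The loci around the 2 groups of genes were examined to see whether neighbours moved with the 6 genes. From 10 loci before to 10 loci after each group, 46 loci of the table lie around or between the 6 genes, and 29 were tested. None passed the threshold in limma, and 8 had an unadjusted p under 0.05, of which 7 were lower and 1 was higher; over all tested loci 17.2% had such a p, and 7.95% had one and were lower. XRCC4 and VAMP728, described below, are among the 7. Both labelled mutant libraries were below both wild-type libraries in 11 of the 29 and above them in 6, against 25.1% and 24.2% of all tested loci. The median log2 change of the 29 was −0.07. The outermost locus before RLP37, RLP36 (AT3G23010), is itself an RLP gene and was not tested. It measured 0.644 and 0.352 FPKM in wild type, against 0.198 and 0.225 FPKM in the labelled mutants, and was named after its values were seen.

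The loci just outside each group are described first. Before RLP37 lies XRCC4 (AT3G23100), a DNA repair gene, whose span in the reference overlaps that of RLP37, and it averaged 7.38 ± 0.955 against 5.44 ± 0.594 FPKM (SD, n = 2 each, limma adjusted p = 0.26). VAMP728 (AT3G24890), a gene of vesicle fusion that overlaps the edge of RLP39, averaged 10.4 ± 0.773 against 8.05 ± 1.13 FPKM (limma adjusted p = 0.277). After RLP42, AT3G25030 averaged 9.55 ± 0.591 against 9.14 ± 1.56 FPKM (limma adjusted p = 0.873), and after RLP38 the microRNA locus MIR173 is listed at 0 in all 4 libraries. How the counting treated strand and overlapping genes is not given in the sources used here. Reads of RLP37 and XRCC4 therefore cannot be told apart where they overlap. The same holds for RLP39, at far lower values than VAMP728, and for RLP40 and AT3G24929, described next.

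Inside the RLP39 to RLP42 group the other loci had unlike values. AT3G24929, whose reference span overlaps that of RLP40, measured 3.11 and 2.79 FPKM in wild type, against 3.73 and 2.01 FPKM in the labelled mutants, with a log2 change of −0.06 (SE 0.23, limma adjusted p = 0.922). The transcribed pseudogene AT3G24927, between RLP39 and RLP40, averaged 19.3 ± 1.44 against 16.7 ± 0.173 FPKM (SD, n = 2 each, limma adjusted p = 0.452). AT3G25013, between RLP41 and RLP42, averaged 3.12 ± 0.336 against 1.43 ± 0.0661 FPKM, a log2 change of −0.76 (SE 0.16) that did not pass (limma adjusted p = 0.0806) except with columns rescaled to equal sums without rRNA loci. AT3G24929, AT3G24927, AT3G25013 and the following 3 loci were described after their values were seen. AT3G25014, also between RLP41 and RLP42, is listed at 5.72 and 6.59 FPKM in wild type, against 11.3 and 0 FPKM in the labelled mutants. The loci AT3G23109 and AT3G25011, next to RLP37 and RLP41, are listed at 5.94 and 136 FPKM in wild-type library 1 and at 0 in the other 3 libraries, and an exact 0 in such a table can be a failed estimate.

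**Figure D3:**
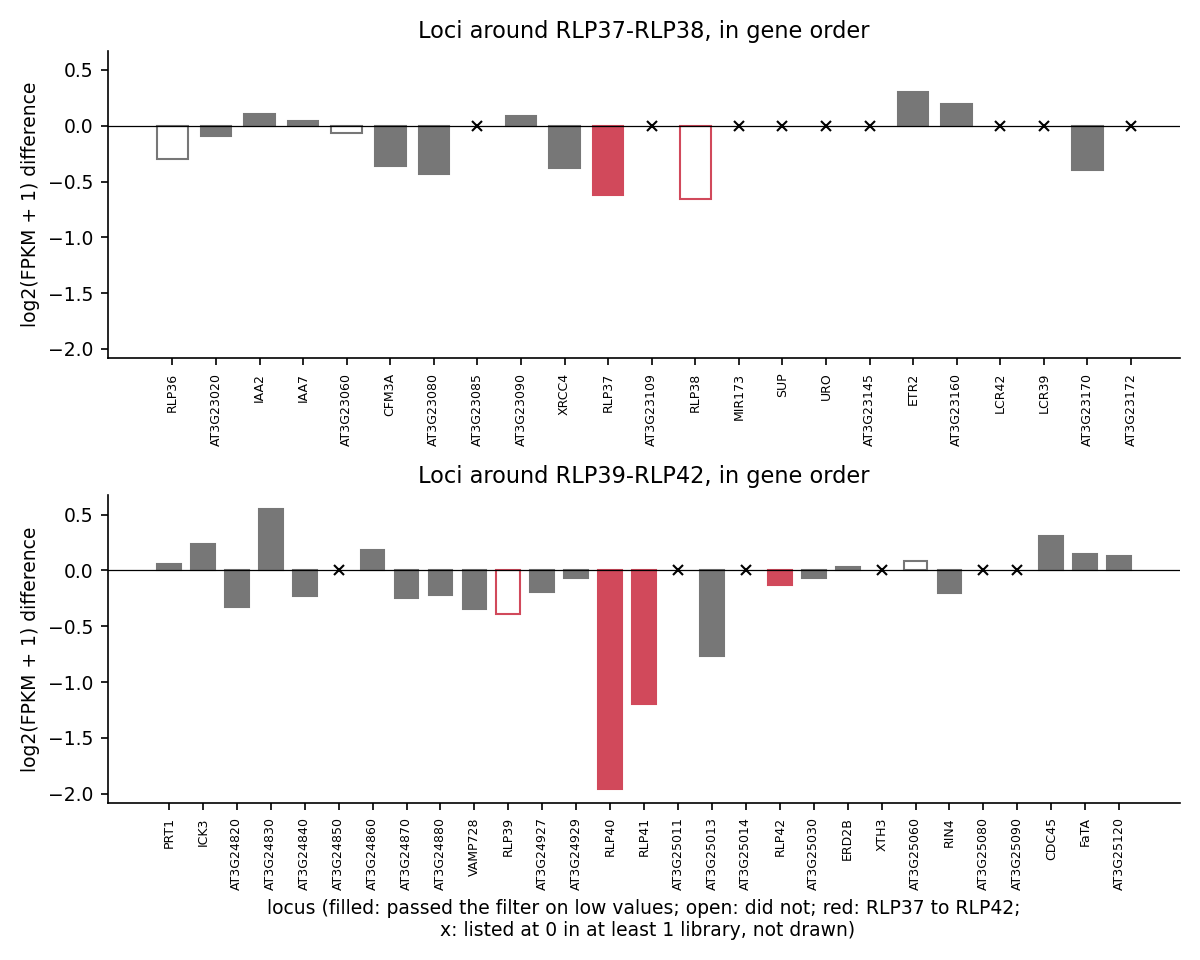
The log2(FPKM + 1) difference, labelled mutant minus wild type, of every locus from 10 loci before to 10 loci after RLP37 to RLP38 (top) and RLP39 to RLP42 (bottom), in gene order, with filled bars for loci that passed the filter on low values, open bars for those that did not, red for RLP37 to RLP42, and crosses for loci listed at 0 in at least 1 library. The low bars of RLP40 (−1.95) and RLP41 (−1.19) stand beside AT3G24929 (−0.06) on one side and, on the other, the cross of AT3G25011 and then AT3G25013 (−0.76).

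The proteins that receptor-like proteins depend on were examined next. None of the 8 adaptor, co-receptor and pseudokinase genes passed the threshold in limma, and 2 had an unadjusted p under 0.05, beside 17.2% of all tested loci. Of the 8, 7 had a log2 change below 0, beside 49.3% of all tested loci, with a median of −0.13. Both labelled mutant libraries were below both wild-type libraries in 3 of the 8 and above them in 1, against 25.1% and 24.2% of all tested loci. SOBIR1 (AT2G31880), the adaptor kinase of the receptor-like proteins, measured 17.4 and 21.7 FPKM in wild type, against 12.1 and 14.3 FPKM in the labelled mutants, and its groups did not overlap (log2 −0.53, SE 0.15, limma adjusted p = 0.143). The co-receptor gene SERK2 (AT1G34210) averaged 19.3 ± 1.33 against 15.4 ± 1.19 FPKM and BIR1 (AT5G48380), which restrains SOBIR1 and BAK1, averaged 17.9 ± 0.181 against 15.6 ± 2.31 FPKM (SD, n = 2 each, limma adjusted p = 0.256 and 0.488). BAK1 (AT4G33430) averaged 19.1 ± 1.36 and 20.7 ± 0.275 FPKM, a log2 change of 0.12 (SE 0.12), and was picked for its role as co-receptor after its values were seen. In wild type SOBIR1 and BAK1 each stood well above every one of the 6 receptor genes per length.

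Downstream of the receptor complex, none of 15 signalling genes passed, and 2 had an unadjusted p under 0.05 in limma, a share under the 17.2% of all tested loci. Their median log2 change was −0.07, with 9 below 0 and 6 above. Both labelled mutant libraries were below both wild-type libraries in 7 of the 15 and above them in 1, against 25.1% and 24.2% of all tested loci. PBL1 (AT3G55450), a receptor-like cytoplasmic kinase, averaged 17.1 ± 0.492 against 13.6 ± 0.663 FPKM, and EDS1 (AT3G48090), the lipase-like hub of this branch, averaged 14.6 ± 0.597 against 11.9 ± 0.157 FPKM (SD, n = 2 each, limma adjusted p = 0.238 and 0.287). The cytoplasmic kinase gene BIK1 (AT2G39660) lay on the other side, at 11.6 ± 0.387 against 14.1 ± 1.35 FPKM (limma adjusted p = 0.347).

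Pattern receptors of the kinase type, which carry their own kinase domain, were compared in the same way. None of 11 passed in limma, 1 had an unadjusted p under 0.05 (17.2% of all tested loci had one), and the median log2 change was −0.03, within a range from −0.35 to 0.12. Both labelled mutant libraries were below both wild-type libraries in 5 of the 11 and above them in 0, against 25.1% and 24.2% of all tested loci. The chitin receptor kinase gene CERK1 (AT3G21630) averaged 14.4 ± 1.86 against 11.1 ± 1.32 FPKM (SD, n = 2 each, limma adjusted p = 0.272), LORE (AT1G61380), which senses bacterial fatty acid metabolites, 7.19 ± 0.524 against 5.77 ± 1.09 FPKM (0.404), and the chitin receptor gene LYK5 (AT2G33580) 2.05 ± 0.0647 against 1.61 ± 0.286 FPKM (0.538).

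The listed genes that respond to pattern receptors lay mostly on the higher side in the labelled mutants. Of 13 such genes 11 were tested, and none passed in limma, while 5 had an unadjusted p under 0.05, all of them higher, beside 9.22% of all tested loci with such a p and a higher value. The median log2 change was 0.43, with 8 above 0 and 3 below. Both labelled mutant libraries were above both wild-type libraries in 7 of the 11 and below them in 0, against 24.2% and 25.1% of all tested loci. The list was chosen with earlier results of these data known, so its counts are a description and no independent support. WRKY29 (AT4G23550), a transcription factor of the flagellin response, measured 4.18 and 4.62 FPKM in wild type, against 8.47 and 6.45 FPKM in the labelled mutants (log2 0.64, SE 0.16, limma adjusted p = 0.119). The danger peptide precursor genes PROPEP1 (AT5G64900) and PROPEP3 (AT5G64905) averaged 5.31 ± 1.01 against 8.26 ± 0.763 FPKM and 1.03 ± 0.712 against 2.42 ± 0.200 FPKM (SD, n = 2 each, limma adjusted p = 0.15 and 0.179). Labelled mutant library 1 was the highest library for this list summed (61.0 FPKM, against 41.2 and 48.7 FPKM in wild type and 51.2 FPKM in labelled mutant library 2), as it was for the root markers, and the part of those tissues was not tested. With wild-type library 2 left out PROPEP3 passed (adjusted p = 0.00857), and MLO12 (AT2G39200), a powdery mildew susceptibility family gene, was called without labelled mutant library 2.

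Plants also meet fungal polygalacturonases, the ligands of RLP42, with inhibitor proteins of the cell wall. The inhibitor genes PGIP1 (AT5G06860) and PGIP2 (AT5G06870) stood at 68.6 and 80.1 FPKM and at 23.1 and 20.9 FPKM in wild type. In the labelled mutants they stood at 103 and 82.7 FPKM and at 31.2 and 20.1 FPKM, and neither passed (limma adjusted p = 0.35 and 0.695).

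**Figure D4:**
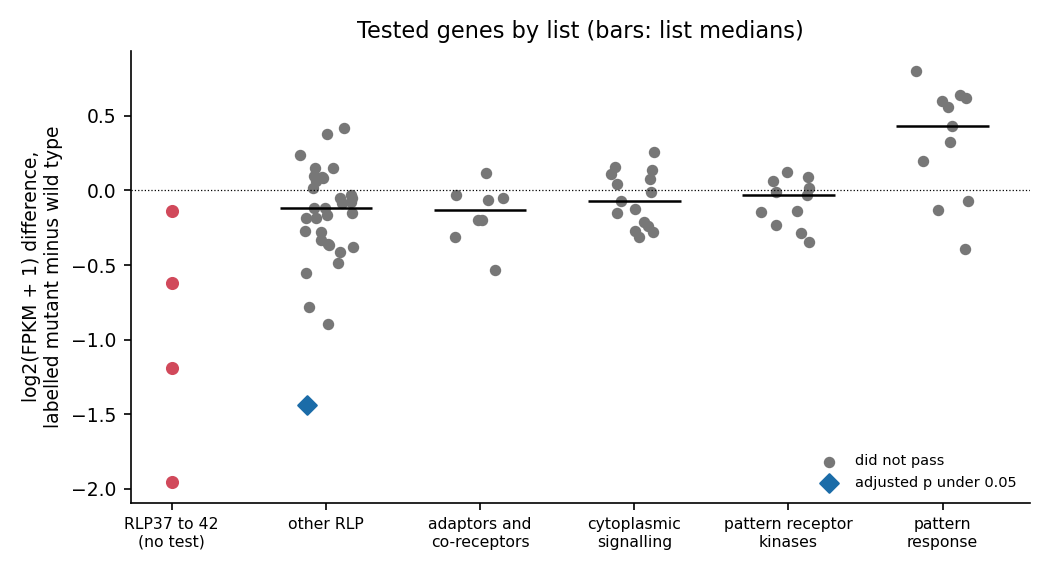
The log2(FPKM + 1) difference, labelled mutant minus wild type, of each tested gene in 6 groups, with bars at the medians of the 5 lists; red points are the tested RLP37 to RLP42 genes, which carry no test, the blue diamond is RLP53 (−1.44), the 1 gene of the 5 lists with a limma adjusted p under 0.05, and grey points are list genes that did not pass. The 3 lists of complex, signalling and kinase-type receptor genes stay within −0.53 and 0.26, and the pattern response list has its median at 0.43.

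The genes whose pattern over the 4 libraries was most like that of the receptor genes were sought by Euclidean distance, on the log2(FPKM + 1) scale, from the mean centred profile of the 4 tested receptor genes. Outside the RLP family the nearest were AT1G05540 (distance 0.088), WRKY46 (0.112), the pseudogene AT2G26215 (0.115), AT1G76470 (0.137) and RPL3B (0.146), and within the family RLP23 (0.149). AT1G76470 (2.29 and 2.23 FPKM in wild type, 0.814 and 0.757 FPKM in the labelled mutants) passed the filter only through wild type, as did RLP23. The filter thus favoured a difference in these genes. The receptor genes themselves lay at 0.23 (RLP41), 0.359 (RLP37), 0.866 (RLP42) and 1.004 (RLP40), so the mean profile stands closest to RLP41. WRKY46 (AT2G46400), a WRKY transcription factor gene, measured 3.49 and 3.90 FPKM in wild type, against 1.51 and 1.58 FPKM in the labelled mutants. RPL3B (AT1G61580), a ribosomal protein gene, had 38.8 and 45.6 FPKM in wild type, against 19.2 and 19.8 FPKM in the labelled mutants, so likeness of pattern did not mean a like level. With 4 libraries in 2 groups, such likeness is mostly a similar difference between the groups.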

How the data were processed

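Per the labels' protocols the RNA-seq libraries came from a TruSeq RNA kit, and the submitters' processing notes name TAIR10, TopHat, Bowtie2 and bedtools with no role given. The deposited table gives FPKM per locus and library, per the file headers; the FPKM program, gene models, use of strand and handling of reads shared by gene copies: not given in the sources used here. Without fragment counts in the table, the depth is unknown and counting intervals cannot be formed. How alike RLP39 to RLP42 are in sequence was not measured here, so single copies are uncertain where reads are shared.

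Columns were matched to libraries by genotype abbreviation and number. The fit was limma 3.58.1 (R 4.3.3) on log2(FPKM + 1) with mean-variance trend and robust moderation, genotype as the only term, over the 19917 loci that reached 1 FPKM in 2 or more of the 4 libraries. Two-sided p-values were adjusted by Benjamini-Hochberg over these loci, with a threshold of 0.05. Tested on simulated data with these 19917 loci, it recovered 62% of the changes of 1 and 100% of the changes of 2 (log2), and 10 of its 172 calls were unchanged loci. The simulated noise was normal and independent between libraries, with a spread set by mean level alone. It held no library-wide shifts or exact 0 values, so the rates in the real data may be worse. Folds are ratios of mean FPKM.

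The 6 genes and all lists were chosen with earlier results of these data known. Named genes are the 6, HD2B and HD2C, called genes of each list and the next 5 (RLP family) or 3 (other lists) by p. Both inhibitor genes, the immediate neighbours and the 5 nearest profiles are also named. Any other is said to have been named after its values were seen, except MLO12 and AT3G24830, named for a call in an alternative run. Symbols and gene order came from RefSeq (TAIR10.1, 32820 loci matched); as that name differs from the authors' build, no coordinates are printed. RLP8 is not analysed here. Alternatives were quantile normalization, equal sums without rRNA loci, other filters and pseudocounts, a replicate block, each library left out, and removal of the trend on gene span.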

Additional observations from a re-analysis of the deposited data

How the results depend on the processing

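All 6 receptor genes stayed lower in every alternative run, but most of these runs could not have changed the sign. The other filters and the replicate block leave the differences as they were. As both labelled mutant libraries lay below both wild-type libraries, neither another pseudocount nor a left-out library could reverse a difference. Only quantile normalization, equal sums without rRNA loci and removal of the trend on gene span could have done so. The log2 differences ran from −2.40 to −1.78 for RLP40, −1.58 to −1.10 for RLP41, −0.84 to −0.61 for RLP37, −1.54 to −0.54 for RLP38, −1.53 to −0.27 for RLP39 and −0.22 to −0.05 for RLP42. Their median of −0.64 was −1.53 with a pseudocount of 0.1 and −0.84 with 0.5, as low values weigh more, and ran from −0.71 to −0.58 with 1 library left out.

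Calls over all loci numbered 231, and 616 with equal sums without rRNA loci, 39 with no filter on low values, 141 after removal of a trend on gene span and 262 to 519 with 1 library left out. Calls among the other RLP genes numbered 1, and 3 with equal sums without rRNA loci (RLP23, RLP34 and RLP53), 0 with no filter, 0 with a mean of at least 2 FPKM, where RLP53 was not tested, and 1 to 2 with 1 library left out. Calls in the pattern response list were 0 to 1 with 1 library left out. Among loci around the 6 genes there was 1 call with equal sums without rRNA loci (AT3G25013) and 0 to 2 with 1 library left out; without labelled mutant library 1 these were AT3G24830 and AT3G25014.

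The libraries share only a replicate number: differences between library 1 and library 2 correlated by 0.143 between genotypes across loci. With the replicate block there were 432 calls over all loci and 2 among the other RLP genes (RLP34 and RLP53). Of the 30 genes outside the 6 that the naming rule gave, 21 kept their side of the threshold throughout. Genes named after their values were seen, such as AT3G25013, or for a call in an alternative run are not among the 30. Of 355 results, 11 lost and 6 gained a call, and none with a call in either setting changed sign. Without labelled mutant library 1 the sign changed for the uncalled genes HD2C (log2 0.107 to −0.1), PGIP2 (0.181 to −0.125) and AT3G25030 (−0.065 to 0.092). The causes were not tested. Depth is unknown, so RLP38 and RLP39 are the least certain values.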

Other observations

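Several RLP genes that did not pass the filter on low values had the direction of RLP37 to RLP42, and are given here as values with no test; they were picked after their values were seen. RLP24 (AT2G33020) measured 0.791 and 1.79 FPKM in wild type, against 0.0948 and 0.241 FPKM in the labelled mutants. RLP28 (AT2G33080), of the same group of neighbouring genes on chromosome 2, measured 0.233 and 0.368 FPKM against 0.0263 and 0.044 FPKM. RLP26 (AT2G33050) and RLP27 (AT2G33060), which lie between them, were tested and averaged 3.89 ± 0.471 against 3.30 ± 0.233 FPKM and 5.40 ± 0.291 against 5.07 ± 0.990 FPKM (SD, n = 2 each).

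RLP43 (AT3G28890) measured 0.848 and 0.79 FPKM in wild type, against 0.3 and 0.276 FPKM in the labelled mutants, and the transcribed pseudogene RLP18 (AT2G15040) 0.858 and 0.446 FPKM against 0.143 and 0.0533 FPKM. Of the 17 other RLP genes that were not tested, 6 had both labelled mutant libraries below both wild-type libraries, beside 22.3% of all loci with a value above 0. In 1, RLP21 (AT2G25470), they lay above, beside 21.0% (0.245 and 0.303 FPKM against 1.05 and 0.426 FPKM). Those shares include the tested loci, where they were 25.1% and 24.2%. The 17 include RLP5, listed at 0 throughout, so the sets are unlike and nothing is read from these counts.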
